A study of Arabidopsis thaliana with 2 samples.

Results

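Shared-flank peaks are the sites of this peak list at which one TGA1-GFP peak could belong to either of a pair of neighbouring genes. They are the peaks under 1000 bp wide (end minus start) whose midpoint was outside every annotated gene and within 1000 bp of the ends of 2 or more protein-coding genes. The rule was met by 1293 of 8002 peaks, 16.2% (95% Wilson interval 15.4 to 17.0%), or 17.8% of the 7271 peaks under 1000 bp. They were chosen by width and position only, with no measure of binding strength.

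The peaks came from chromatin immunoprecipitation with sequencing (ChIP-seq) on Arabidopsis thaliana roots in which TGA1 carried a green fluorescent protein tag (TGA1-GFP). The titles name 1 library from TGA1-GFP roots with a GFP antibody and 1 from TGA1-GFP roots with IgG, the background antibody; both carry the fusion protein. Not given in the sources used here are the promoter driving the fusion, the age of the plants and their nitrogen supply. One peak list was analysed for both libraries, with chromosome, start and end only and no height, score or read count. There was no replicate and the depth is unknown, so no difference below was tested, and intervals cover counting error within this 1 list. Peaks and genes of a list are not replicates.

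TGA1 belongs to the TGA family of bZIP transcription factors, which bind DNA at TGACG-type elements. In roots, TGA1 and its close relative TGA4 are known for their part in the nitrate response, and TGA factors act together with glutaredoxins and with the salicylic acid receptors of the NPR family. Arabidopsis genes lie close together, so that the sequence between neighbours can be the start of both (divergent genes), the end of both (convergent) or one of each (tandem). The gene table used here has no strand, so these 3 arrangements cannot be told apart in any result below. No genome or promoter sequence was used here, so no motif was searched and no sequence is shown.

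Most of these peaks lay between a pair of neighbouring genes. One gene or more was in reach on each side of the midpoint at 1241 of 1293 peaks, 96.0% (94.8 to 96.9%). The other 52 had both genes on one side, as where genes overlap; the earliest of them in the list was an 804 bp peak at place 691 (chr5:6000446-6001249, TAIR10) beside AT5G18140 and AT5G18150. Exactly 2 genes were in reach of 1244 peaks, 3 genes of 48 and 4 genes of 1. Another annotated gene that does not code for protein, mostly a long non-coding RNA gene (113 peaks), was within 1000 bp of 150 peaks, 11.6% (9.97 to 13.5%). Among narrow peaks with exactly 1 protein-coding gene in reach, 354 of 2392 had such a gene, 14.8% (13.4 to 16.3%).

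The peaks were much like other narrow flank peaks in width and place. Their median width was 420 bp (quartiles 331 and 555 bp, range 249 to 979 bp), against 421 bp (quartiles 328 and 570 bp) for the 2392 narrow peaks with exactly 1 protein-coding gene in reach, called one-gene flank peaks below. The list is not in order of position and runs roughly from wide to narrow peaks, but the sources used here do not say what its order stands for. The median place was 4287 for shared-flank peaks and 4252.5 for one-gene flank peaks. Shared-flank peaks made up 17.0% of the narrow peaks at places 1 to 2000, 18.5% at 2001 to 4000, 18.2% at 4001 to 6000 and 17.4% at the later places, with overlapping intervals. At the width limit, the widest of them had 979 and 972 bp, and the narrowest shared-flank peaks outside it had 1001 and 1004 bp. Peaks of 1000 bp or more formed 8.04% (6.73 to 9.58%) of all peaks in shared flanks and 10.5% (9.44 to 11.8%) of those in one-gene flanks. The share was lower in shared flanks. The intervals overlap at their ends only, which does not show the shares to be alike, and the difference was not tested. At the reach limit, the last peaks inside had their second gene at 1000 and 999 bp, and the first outside had it at 1002 and 1003 bp.

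Pooled over all distances peaks were denser in shared than in one-gene flanks. At like distance from a gene the order varied with the distance, with overlapping intervals. Shared flanks amounted to 7.28 Mb and held 178 narrow peaks per Mb (exact Poisson interval 168 to 187). One-gene flanks amounted to 15.4 Mb and held 155 per Mb (149 to 162). Shared was above one-gene on all 5 chromosomes: on chromosome 5 it was 182 per Mb (162 to 203) against 148 (135 to 161), and on the other 4 chromosomes the intervals overlapped. At like distance from the nearest gene end the intervals of the densities overlapped throughout, which does not show the densities to be alike. In the 100 bp next to a gene, shared flanks held 191 peaks per Mb (172 to 210) and one-gene flanks 222 per Mb (202 to 244). Both were densest from 101 to 200 bp, with 237 per Mb (213 to 263) in shared and 246 per Mb (224 to 270) in one-gene flanks. Shared flanks were the higher in each 100 bp from 201 to 600 bp, as at 201 to 300 bp with 184 per Mb (160 to 211) against 161 per Mb (142 to 180), and the lower in each from 601 to 1000 bp. With the one-gene density of each 100 bp, shared flanks would have held 1327 narrow peaks, and they held 1293. That ratio was 0.974 (0.922 to 1.03, counting error of the shared-flank peaks only), where the pooled ratio was 1.14. No ratio was taken within 200 bp alone, where shared flanks were the lower in both 100 bp bins. The ratio of 0.974 pools these bins with distances at which shared flanks were the higher. Over 200 bp from a gene alone, shared flanks held 536 peaks where one-gene densities gave 489, a ratio of 1.1 (1.01 to 1.19). This interval too covers counting error of the shared-flank peaks only. It leaves out that of the one-gene densities and is therefore too narrow, so the ratio is not shown to differ from 1.

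**Figure D1:**
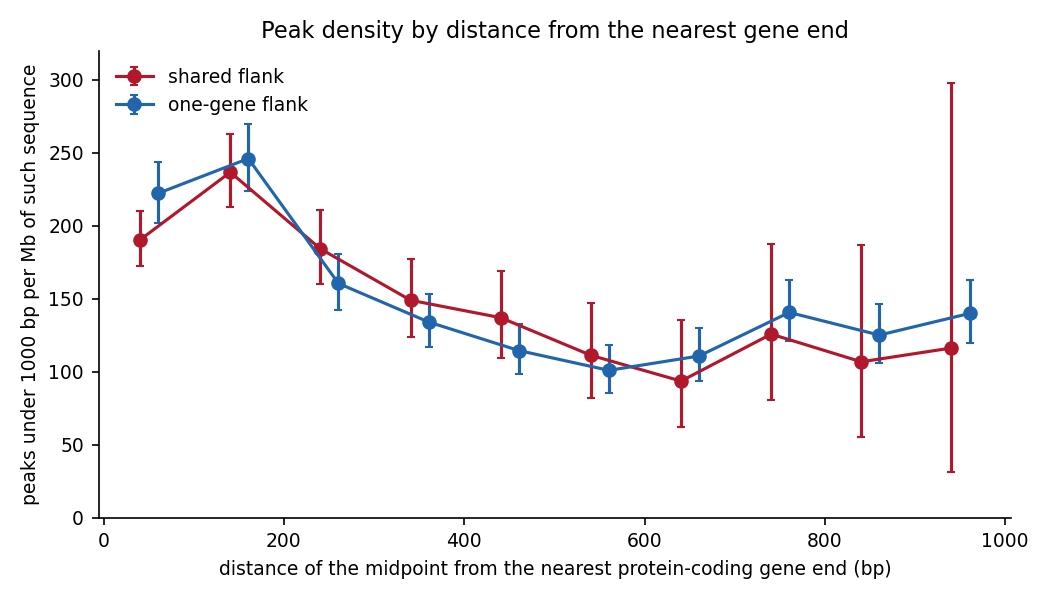
Peaks under 1000 bp per Mb of sequence (y axis) against the distance of the midpoint from the nearest protein-coding gene end in bp (x axis), in shared flanks (red) and one-gene flanks (blue), with exact Poisson intervals that cover counting error. Both are highest at 101 to 200 bp (237 and 246 per Mb), and the intervals overlap in each bin.

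Few gaps between neighbouring genes held such a peak, and gaps of middle length did so most often. Of 17065 gaps with sequence in reach of both genes, 1221 held a shared-flank peak, 7.15%. The share was 2.1% (1.76 to 2.51%) of the 5661 gaps of up to 250 bp and 14.4% (12.9 to 16.1%) of the 1807 gaps of 751 to 1000 bp. It was 2.96% (2.26 to 3.88%) of the 1721 gaps over 1500 bp, of which only the middle is within 1000 bp of both genes. Per Mb in reach of both genes the numbers moved less. They were 194 peaks (161 to 232) in gaps of up to 250 bp, 220 (192 to 250) in gaps of 251 to 500 bp, 155 (134 to 179) in gaps of 1001 to 1250 bp and 120 (89.5 to 158) in gaps over 1500 bp.

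**Figure D2:**
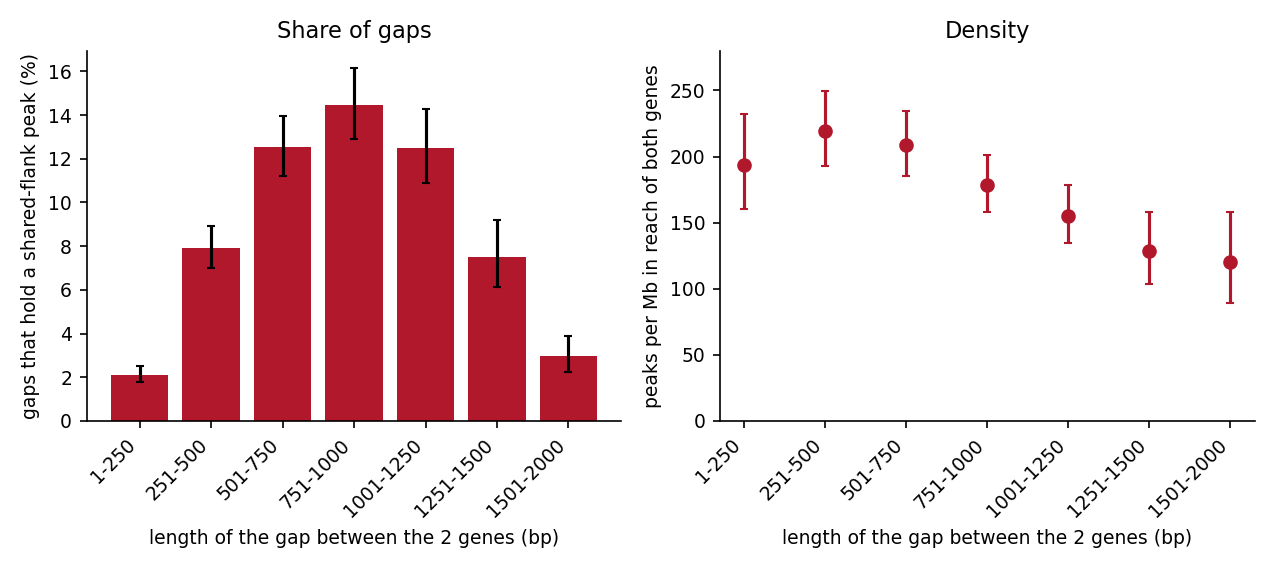
Left, share of gaps between neighbouring protein-coding genes that held a shared-flank peak in percent, with 95% Wilson intervals; right, shared-flank peaks per Mb in reach of both genes, with exact Poisson intervals; both against gap length in bp. The share is highest at 751 to 1000 bp (14.4%), and the density is highest at 251 to 500 bp (220 per Mb).

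The place of the midpoint within a gap differed with gap length. The distance to the nearer gene had a median of 159 bp (quartiles 81 and 304 bp) and that to the farther gene a median of 545 bp (quartiles 317 and 776 bp), in gaps with a median length of 737 bp. One-gene flank peaks lay a median of 304 bp from their gene. The medians of 159 and 304 bp are unlike measures, since the first is the smaller of 2 distances in gaps that the rule keeps short. The sequence itself differed likewise: 2.12 of 7.28 Mb of shared flanks lay within 100 bp of a gene, and 2.0 of 15.4 Mb of one-gene flanks. In gaps under 500 bp, 39.5% of midpoints (34.6 to 44.7%) were in the central one of 3 equal parts of the gap, which held 33.2% of the bases in reach. In gaps of 500 to 999 bp the central part held 29.9% of midpoints (26.3 to 33.9%) and 33.1% of bases, and in gaps of 1000 bp or more 47.6% (42.3 to 53.0%) and 61.1%. Beside the bases in reach, midpoints were more often central in short gaps and less often central in long ones, and in gaps of 500 to 999 bp the interval held the share of bases.

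Peaks often reached into the genes themselves. The whole width stayed between the 2 genes at 436 of 1241 peaks, 35.1% (32.5 to 37.8%). It overlapped 1 of them at 606 peaks, 48.8%, and both at 199 peaks, 16.0% (14.1 to 18.2%), and 337 peaks were wider than their gap. Overlap with both genes was found at 83.2% of peaks in gaps of up to 250 bp, 31.9% at 251 to 500 bp and 8.16% at 501 to 750 bp. No peak was under 249 bp wide, so one with its midpoint in a shorter gap must reach into at least 1 gene. Overlap is thus set in part by gap length. The shortest gap with a peak had 23 bp, between AT4G29260 and AT4G29270, under a 331 bp peak. Next in length were a 41 bp gap between AT1G27410 and AT1G27420 under a 388 bp peak, and a 42 bp gap beside WRKY45 (AT3G01970), a WRKY transcription factor gene, under one of 344 bp. These short gaps were picked after their values were seen.

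**Figure D3:**
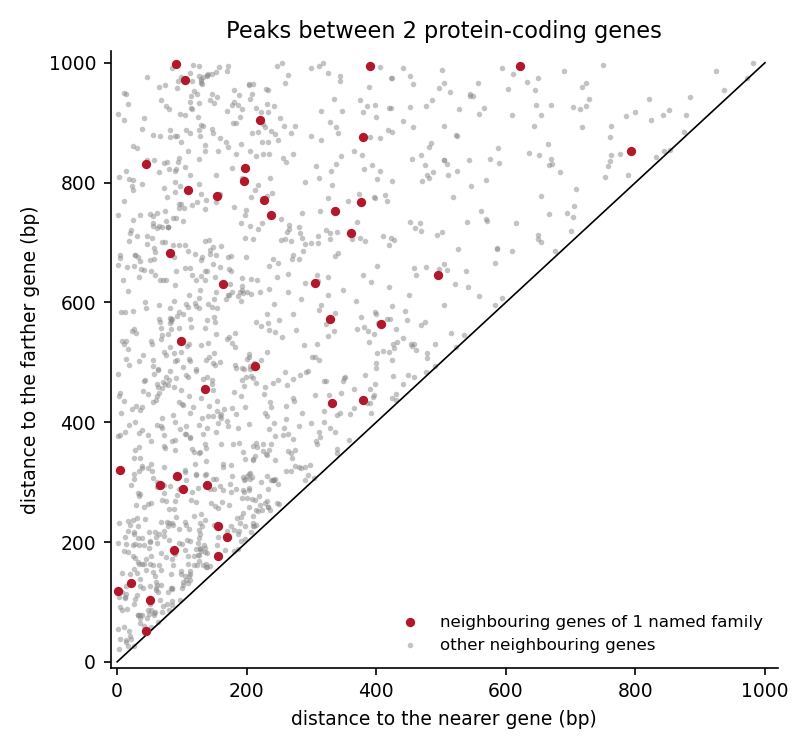
Distance of each midpoint to the farther gene (y axis, bp) against that to the nearer gene (x axis, bp) for the 1241 peaks with a protein-coding gene on each side; red points are neighbouring genes of 1 named family or list, and the line marks equal distances. Points crowd at the left, where the nearer gene is within 304 bp for 3 in 4 peaks, and the red points are spread over the same range.

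The peaks earliest in the list lay beside genes of several functions. The first, at place 14 and 852 bp wide (chr3:5603216-5604067), had its midpoint 614 bp from MPPalpha (AT3G16480), a subunit of the mitochondrial processing peptidase, and 207 bp from IQD26 (AT3G16490), a calmodulin-binding IQD protein gene. At place 15 a 670 bp peak (chr4:16344640-16345309) covered the whole 331 bp between UGT73B3 (AT4G34131) and UGT73B2 (AT4G34135), genes of UDP-glucosyltransferases. At place 28 a 570 bp peak (chr1:26123269-26123838) lay 39 bp from NAP (AT1G69490), a NAC transcription factor gene known for leaf senescence, and 387 bp from CYP704B1 (AT1G69500), a cytochrome P450 gene of pollen wall formation. At place 36 a 649 bp peak lay between BHLH39 and EDA7. At place 92 a 605 bp peak (chr4:16350013-16350617) lay 112 bp from UGT73B1 (AT4G34138), another gene of the UGT73B cluster, and 147 bp from AT4G34140. Each of these 5 peaks overlapped at least 1 of its genes.

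The widest of the peaks, 979 bp (place 772), overlapped both RLP11 (AT1G71390) and RLP12 (AT1G71400), genes of receptor-like proteins. Next were 972 bp between AT4G22820 and AT4G22830, and 965 bp (place 546) between HTR12 (AT1G01370), the centromeric histone H3 gene, and ETC1 (AT1G01380), a MYB-type gene of hair cell patterning. Of the 2 peaks of 962 bp, one lay between AT1G74770 and AT1G74780 and the other between ZYP1b (AT1G22275), of meiotic chromosome pairing, and PAPP2C (AT1G22280), a protein phosphatase gene. Their places ran from 358 to 3507.

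Some gaps lay between members of 1 gene family. The neighbouring genes had symbols with the same letters before the first digit (3 letters or more) at 41 of 1241 peaks. Of 401 gaps between such same-name genes, 39 held a peak, 9.73% (7.20 to 13.0%), and of 2017 gaps between named genes of unlike name 171 did, 8.48% (7.34 to 9.77%), so the intervals overlap. Same-name gaps were longer (median 721 bp against 478 bp), and per Mb they held 202 peaks (145 to 274) against 220 (189 to 255). For the shares of gaps, both intervals lie above the 7.15% of all gaps, though they start close to it, at 7.20 and 7.34%.

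Family pairs with a peak included stress and defence enzymes. GSTU24 (AT1G17170) and GSTU25 (AT1G17180), glutathione transferases that detoxify chemicals, shared a 582 bp peak at place 924, 646 and 495 bp away (chr1:5871239-5871820). GSTF9 (AT2G30860) and GSTF10 (AT2G30870), glutathione transferases of another class, shared one of 600 bp at place 1600, 788 and 110 bp away. TPX2 (AT1G65970) and TPX1 (AT1G65980), thioredoxin-dependent peroxidases, shared one of 428 bp, 777 and 154 bp away. AOC2 (AT3G25770) and AOC3 (AT3G25780), allene oxide cyclases of jasmonate synthesis, shared one of 415 bp, 337 and 752 bp away. In each of these 4 pairs except GSTU24 and GSTU25, the midpoint was more than 2 times as far from one gene as from the other.

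Pairs of receptor and regulator genes were found as well. CRK2 (AT1G70520) and CRK3 (AT1G70530), cysteine-rich receptor-like kinases, shared a 797 bp peak at place 242, 81 and 682 bp away. WAKL4 (AT1G16150) and WAKL5 (AT1G16160), wall-associated kinase-like genes, shared one of 681 bp at place 259, 493 and 213 bp away. The NAC transcription factor genes NAC004 (AT1G02230) and NAC005 (AT1G02250) shared one of 844 bp at place 425, and NAC048 (AT3G04420) and NAC049 (AT3G04430) had 2 peaks between them, of 343 and 440 bp. Among metabolic genes, BCAT-1 (AT1G10060) and BCAT-2 (AT1G10070), branched-chain amino acid aminotransferases, shared a 510 bp peak at place 838. NPC4 (AT3G03530) and NPC5 (AT3G03540), phospholipases C, shared one of 551 bp. The pairs ABCI18 and ABCI19, ABCC1 and ABCC12 (ABC transporter genes), cPT5 and cPT6 (cis-prenyltransferases), CYP71B28 and CYP71B29 (cytochromes P450), and UGT85A2 and UGT85A5 (glucosyltransferases) had peaks of 416, 421, 595, 492 and 462 bp. Further down the list, and picked after their values were seen, UGT76C2 (AT5G05860) and UGT76C1 (AT5G05870), which glucosylate cytokinins, shared one of 348 bp, 1 and 119 bp away. The catalase genes CAT3 (AT1G20620) and CAT1 (AT1G20630) shared one of 353 bp over a gap of 95 bp.

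Successive gaps also held peaks, as some would where 7.15% of all gaps held one. Whether such runs were in excess was not tested. Of the gaps with a peak, 201 stood in 92 runs of 2 or more neighbouring gaps; 77 runs had 2 gaps, 13 had 3 and 2 had 4, and the other 1020 gaps stood alone. In the LECRKA4 cluster, genes of lectin receptor kinases, 3 gaps in a row held peaks of 872 bp (place 310, between LHCB4.1 and LECRKA4.1), 700 bp (place 2174, between LECRKA4.1 and LECRKA4.2) and 914 bp (place 790, between LECRKA4.2 and LECRKA4.3). The gaps measured 430, 900 and 1255 bp. A run of 4 gaps on chromosome 3 went from AT3G17770 past PAP17, a purple acid phosphatase gene, and PYD1, which starts the breakdown of uracil, to GLN1;3 (AT3G17820), a cytosolic glutamine synthetase gene. Its peaks were 483, 376, 937 and 260 bp wide. Runs and the loci drawn here were picked after their values were seen.

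At the UGT73B cluster every gap carried a peak, 1 of them too wide to count. Beside the peaks at places 15 and 92, a 1092 bp peak at place 1302 lay between UGT73B2 and UGT73B1, and a 658 bp peak at place 2708 lay farther left on the map, between PAB2, a poly(A)-binding protein gene, and LEJ1. The gene LEJ1 overlaps UGT73B3, so no gap separates them.

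**Figure D4:**
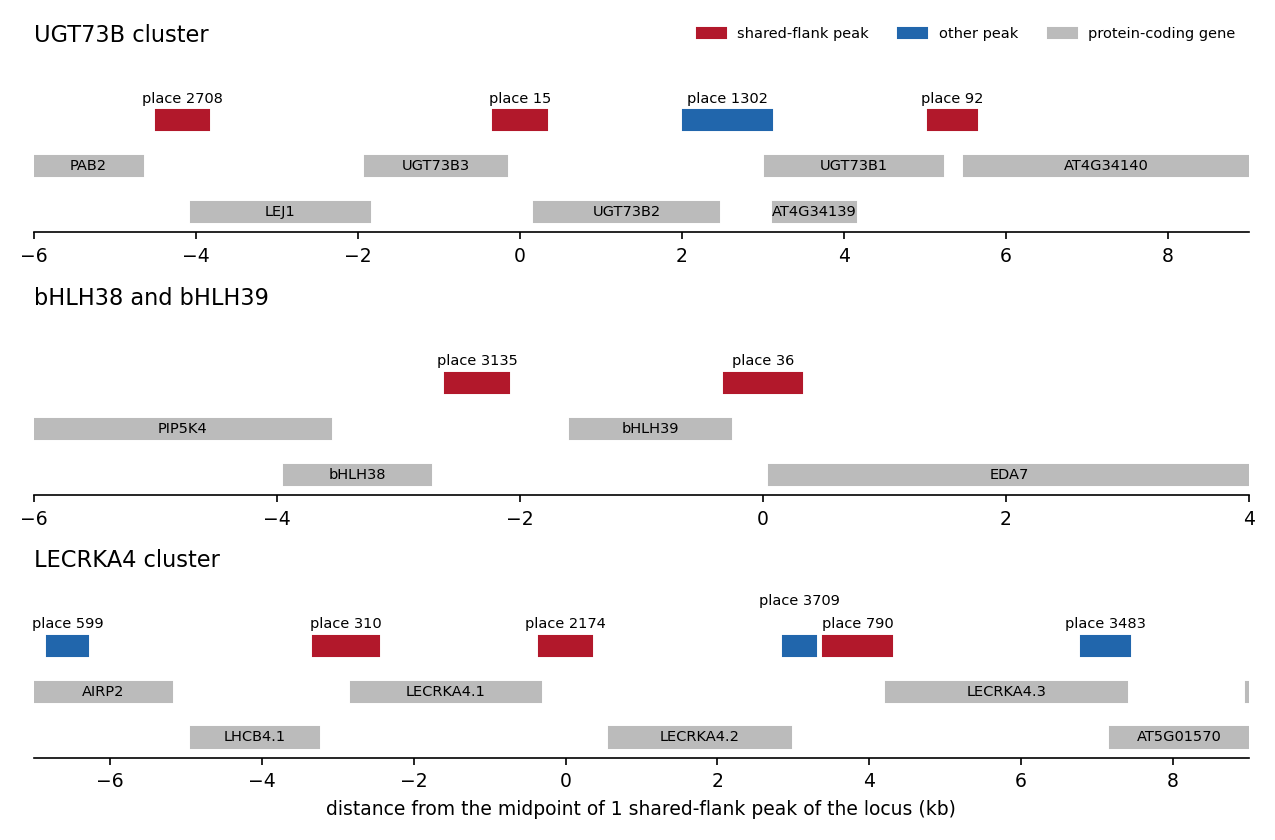
Peaks (upper row of each map, red for shared-flank peaks and blue for other peaks) and protein-coding genes (grey) at 3 loci, against the distance in kb from the midpoint of one shared-flank peak; labels give the place in the list. The peaks at places 15 and 36 fill the short gaps beside UGT73B3 and bHLH39, and 3 successive gaps around LECRKA4.1 and LECRKA4.2 hold red peaks at places 310, 2174 and 790.

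No gap held more than 2 shared-flank peaks, and 20 gaps held 2. In these 20 the midpoints were 413 to 854 bp apart (median 553.5 bp) and 84 to 469 bp between the peaks' edges. These gaps had a median length of 1013.5 bp. They included those between ABCC3 (AT3G13080) and ABCC6 (AT3G13090), ABC transporter genes, with peaks of 340 and 295 bp, and between TEJ (AT2G31870) and SOBIR1 (AT2G31880), a receptor kinase gene of defence, with peaks of 374 and 460 bp. Over all peaks of the list, another midpoint lay within 1000 bp of 11.6% of shared-flank peaks (9.97 to 13.5%) and of 23.7% of one-gene flank peaks (22.1 to 25.5%). The median distance to the next midpoint was 4420 bp for shared-flank and 1931.5 bp for one-gene flank peaks. The rule bears on this contrast, because it places shared-flank midpoints between close genes. Of all midpoints 25.3% lay in protein-coding genes, and 62.0 and 62.2% after shifts of 5000 bp to either side. How much of the contrast the rule sets was not tested.

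A shared-flank peak was within 1000 bp of 2499 of 27432 protein-coding genes, 9.11%. Among these, 133 genes had 2 or more and 90 had one in the gap on each side. The most for any gene was 3, at CSLB03 (AT2G32530), a cellulose synthase-like gene, and at AT1G01440, AT5G19870 and AT5G19875. The genes with a peak had a median length of 2221 bp, and those beside a shared flank without one 2084 bp. Of the 2499 genes with a peak, 2427 counted as beside a shared flank, so the 2 medians come from unlike sets of genes.

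The gene lists below were written with earlier results of these data known, and several genes are on them because an earlier account named a peak there. Their counts are therefore a description and no evidence that the peaks prefer a function. Of 187 listed genes, 34 had a shared-flank peak, 18.2%, beside 9.11% of all protein-coding genes.

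In both lists of nitrate uptake and response the interval of the share with a shared-flank peak was wide and held the 9.11% of all genes. Flank peaks of any width, shared or not, lay within 1000 bp of 7 of the 12 genes of nitrate uptake and reduction and 12 of the 19 nitrogen response regulators, beside 18% of all protein-coding genes, and the comparison list of housekeeping genes had 6 of 12. A shared flank, with or without a peak, lay beside 7 of the 12 and 9 of the 19, against 83.8% of all protein-coding genes. With a reach of 500 bp, 0 genes of either list had a shared-flank peak. Of 12 genes of nitrate uptake and reduction 1 had one, 8.33% (1.49 to 35.4%): NRT2.5 (AT1G12940), a high-affinity nitrate transporter, 881 bp from the midpoint of a 420 bp peak that was 243 bp from RSH2. Of 19 nitrogen response regulators 2 had one, 10.5% (2.94 to 31.4%). The protein kinase gene CIPK8 (AT4G24400) was 21 bp from the midpoint of a 425 bp peak, and AFB4, an auxin receptor gene, was 720 bp away on the other side of it. NLP6 (AT1G64530), a nitrate-responsive transcription factor gene, was 541 bp from that of an 878 bp peak, which was 625 bp from RPN12a, a proteasome subunit gene.

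In ammonium uptake and assimilation, 4 of 15 genes had one, 26.7% (10.9 to 52.0%). GLU2 (AT2G41220), a glutamate synthase, was 280 bp from a 928 bp peak shared with PIP5K5 (393 bp). The glutamine synthetase genes GLN1;2 (AT1G66200) and GLN1;3 were 978 and 132 bp from peaks of 425 and 260 bp. The neighbour AT1G66190 was nearer than GLN1;2, at 139 bp, and PYD1 was farther than GLN1;3, at 381 bp. ASN2 (AT5G65010), an asparagine synthetase, was 328 bp from a 283 bp peak shared with ANNAT2, an annexin gene. Outside the lists and picked after its values were seen, DUR3, the high-affinity urea transporter gene, lay 40 bp from a 763 bp peak at place 226 that was 452 bp from UMAMIT1.

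Of 10 TGA factor genes 2 had one, 20% (5.67 to 51.0%): TGA9 (AT1G08320), 202 bp from a 423 bp peak and with AT1G08315 nearer at 113 bp, and TGA6 (AT3G12250), 137 bp from a 282 bp peak. Of 10 genes of the CEP pathway and class III glutaredoxins 2 had one, 20%: GRXC9 (AT1G28480), 955 bp from a 551 bp peak and farther than SYP61 at 645 bp, and ROXY2 (AT5G14070), 213 bp from a 341 bp peak. Of 23 genes of salicylic acid signalling 2 had one, 8.70% (2.42 to 26.8%). The midpoint of a 575 bp peak at place 153 was 1 bp outside NPR4 (AT4G19660), a salicylic acid receptor gene, and 377 bp from AT4G19670. EDS5 (AT4G39030), which exports salicylic acid from the chloroplast, was 256 bp from a 549 bp peak.

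Glutathione transferases stood at the upper end of the lists. Of 21 genes of glutathione transferases and detoxification 7 had one, 33.3% (17.2 to 54.6%), an interval above the 9.11% of all genes, but they rested on 5 peaks. Beside GSTU24 and GSTU25 these were GSTU1 (AT2G29490), 112 bp from a 453 bp peak at place 561, and GSTU7 (AT2G29420) and GSTU6 (AT2G29440), at 81 and 650 bp from a single 342 bp peak. GSTF8 (AT2G47730) was 176 bp from a 357 bp peak with AT2G47710 nearer at 24 bp, and GSTF7 (AT1G02920) was 61 bp from a 592 bp peak. Among the 57 name stems with 20 or more genes, the GSTU stem had the highest share, 8 of 27 genes (29.6%, 15.9 to 48.5%) on 6 peaks. The intervals of 6 stems lay above the share of all genes; the others were EXO with 6 of 25, PUB with 5 of 22, SYP with 5 of 23, TBL with 8 of 41, and, in place 8 by share, UGT with 10 of 58 (17.2%, 9.64 to 28.9%) on 8 peaks. The interval of 1 stem lay below it, that of EMB, genes essential for the embryo, which had 5 of 160 (3.12%, 1.34 to 7.11%). These stems were picked after their values were seen, with no allowance for the 57 stems looked at. Stems come only from genes with a symbol, and of 10363 such genes 1035 had a shared-flank peak. The intervals of SYP (from 9.66%) and UGT (from 9.64%) hold that share.

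Among genes of other nutrients and of hormones, 4 of 19 iron deficiency genes had one, 21.1% (8.51 to 43.3%). BHLH38 (AT3G56970) and BHLH39 (AT3G56980), neighbouring transcription factor genes that drive iron uptake, shared a 528 bp peak at place 3135 (chr3:21085359-21085886), 377 and 768 bp away. The 649 bp peak at place 36 (chr3:21087651-21088299) lay on the other side of BHLH39, 265 bp away and 52 bp from EDA7. NAS1 (AT5G04950), a nicotianamine synthase, was 232 bp from an 820 bp peak and SUVH1, on the other side, 268 bp. AHA2 (AT4G30190), a proton pump, was 67 bp from a 499 bp peak. Of 20 phosphate and sulfur deficiency genes 3 had one, 15% (5.24 to 36.0%): PHF1 (AT3G52190), APR3 (AT4G21990) and SPX1 (AT5G20150), at 53, 12 and 830 bp. HBP5 was nearer than SPX1, at 475 bp. Of 10 cytokinin type-A response regulators 3 had one, 30% (10.8 to 60.3%): ARR6 (AT5G62920) at 194 bp, ARR17 (AT3G56380) at 531 bp and ARR4 (AT1G10470) at 926 bp. ARR17 and ARR4 were both farther from the midpoint than the neighbour, AT3G56390 at 426 bp and GLP7 at 703 bp.

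The lists kept for comparison gave 2 of 7 root hair genes, 28.6% (8.22 to 64.1%). These were EXPA7 (AT1G12560), an expansin, at 273 bp with HPR3 nearer at 201 bp, and LRX1 (AT1G12040), a cell wall protein, at 22 bp. The comparison lists also gave 1 of 9 photosynthesis genes (11.1%), LHCA1 (AT3G54890) at 833 bp with AT3G54880 nearer at 73 bp. Of 12 housekeeping genes 1 had one (8.33%), GAPC1 (AT3G04120), at 212 bp with GLR1.1 at 226 bp. For 13 of the 34 listed genes, another protein-coding gene was nearer to the midpoint at each of their shared-flank peaks.

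Which lists stood above all genes depended on the reach. With 500 bp, where 4.27% of all protein-coding genes had a shared-flank peak, 3 of 21 glutathione transferase and detoxification genes had one, 14.3% (4.98 to 34.6%). At that reach 1 of 10 type-A response regulators (1.79 to 40.4%) and 2 of 15 ammonium genes (3.74 to 37.9%) had one, and both intervals held the share of all genes. With 2000 bp, where that share was 17.5%, the counts were 10 of 21, 4 of 10 (16.8 to 68.7%) and 6 of 15 (19.8 to 64.3%), and of these 3 lists the interval of the type-A response regulators held it. Other lists stood above all genes only at another reach: TGA factors (2 of 10, 5.67 to 51.0%) and root hair genes (2 of 7, 8.22 to 64.1%) at 500 bp, and iron deficiency genes (8 of 19, 23.1 to 63.7%) and phosphate and sulfur deficiency genes (10 of 20, 29.9 to 70.1%) at 2000 bp.

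**Figure D5:**
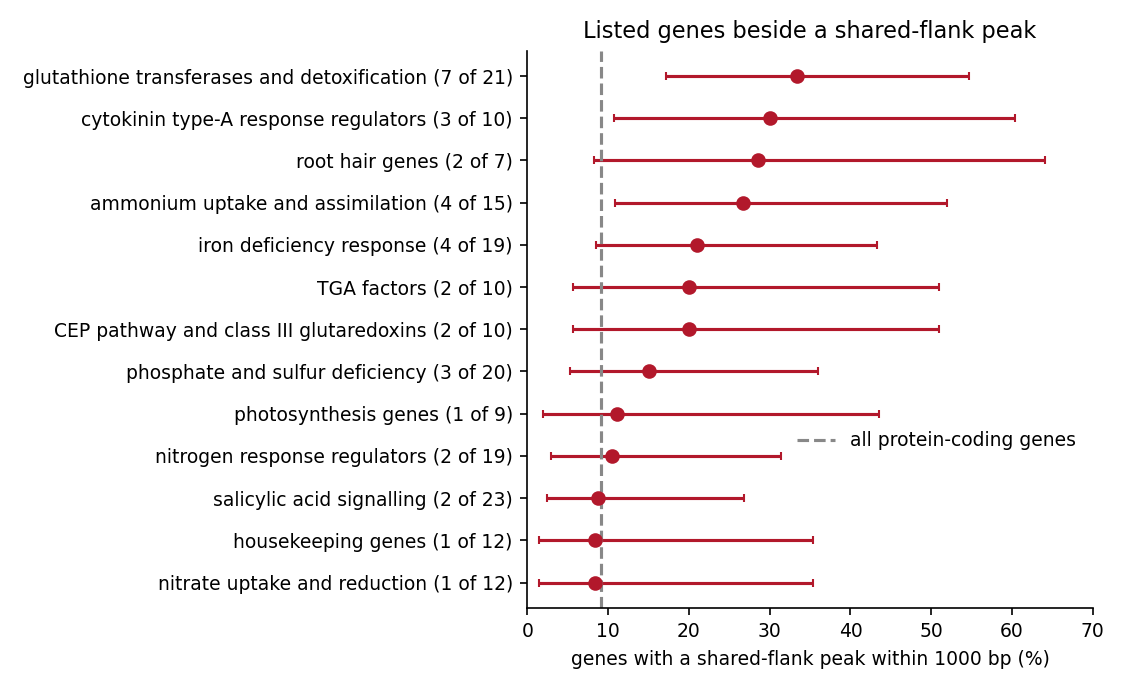
Share of the genes of each list with a shared-flank peak within 1000 bp, in percent, with 95% Wilson intervals and the count of genes; the dashed line marks all protein-coding genes (9.11%). The interval of 10 of the 13 lists holds the line; those of glutathione transferases, type-A response regulators and ammonium genes lie above it, and at a reach of 500 bp that of the glutathione transferases alone of these 3 does.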

How the data were processed

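Chromatin from roots of TGA1-GFP plants was cross-linked and isolated with GFP antibodies, per the labels' protocols; the titles name 1 GFP and 1 IgG library. Bowtie2 and MACS2 were used with build TAIR10, per the submitters' processing notes. Not given in the sources used here are versions, thresholds, filters and the use of IgG as control. The authors' deposited list holds chromosome, start and end of 8002 peaks. Starts were read as BED and are printed counted from 1.

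Genes (37887, of which 27432 protein-coding) came from a RefSeq table of assembly TAIR10.1 without strand. As a check of shared coordinates, 25.3% of midpoints lay in protein-coding genes, and 62.0 and 62.2% after shifts of 5000 bp to either side. The midpoint stood for the peak. Gaps are stretches between neighbouring protein-coding genes, with overlapping ones joined, and can hold other annotated genes. Bases inside those other genes count in gap length but were left out of densities. All 187 listed genes were in the table, and it pairs 169 with the name used here. Members and lists were chosen with earlier results of these data known. Named were the 5 earliest and 5 widest peaks, the first 20 peaks between same-name genes and the peaks next to the limits. Up to 6 genes a list were named, but all 7 of the glutathione transferase and detoxification list. Others are marked.

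Shares have 95% Wilson intervals and densities exact Poisson intervals. No test was made, since each antibody has 1 library. Alternatives were other reaches, widths, overlaps and parts of the list. The sorting rule was tested on 1000 simulated peaks. Tools were scipy 1.17.1, pandas 2.3.3, numpy 2.4.6 and matplotlib 3.10.9 under Python 3.11.15.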

Additional observations from a re-analysis of the deposited data

How the results depend on the processing

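The number of shared-flank peaks and of genes beside them follows the reach by construction, since the reach defines them. With 500 bp in place of 1000 bp there were 589 peaks, 1170 genes, 17 listed genes, 205 peaks per Mb and a median of 120.5 bp to the nearer gene. With 2000 bp there were 2556 peaks, 4804 genes, 64 listed genes, 163 peaks per Mb and a median of 232 bp. Without the width limit the density was 193 per Mb and that median 176 bp. The earlier of 2 equal parts of the list held 589 of the peaks, at 80.9 per Mb, beside 1186 genes, since it holds fewer peaks. Peaks lying wholly outside all annotated genes numbered 439. Requiring a gene on each side (1241), reading starts as counted from 1 (1295) and ignoring genes that do not code for protein (1317) moved the number by less than 1.5 times.

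The ratio of density in shared to one-gene flanks was 1.14 with all distances pooled. At like distance from the nearest gene it was 0.974 in bins of 100 bp and 0.974 in bins of 50 bp. Their interval (0.922 to 1.03) holds 1. No ratio was taken within 200 bp alone. There shared flanks were the lower in both 100 bp bins, at 191 against 222 and 237 against 246 per Mb. Over 200 bp from a gene the ratio was 1.1 (1.01 to 1.19). These intervals leave out the counting error of the one-gene densities and are too narrow. These comparisons were added after the data were seen. At like distance it was 0.985 in the earlier and 0.965 in the later part of the list. Of shared flanks 2.12 of 7.28 Mb lay within 100 bp of a gene, and of one-gene flanks 2.0 of 15.4 Mb.

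Of 39 recounts of single lists at other reaches or with no width limit, 16 moved by more than 1.5 times. The planned results by gene orientation and of the TGACG motif were not run, for want of strand and sequence among the files used here. No paired analysis was possible because each antibody had 1 library. The unknown depth sets no limit that could be stated for a gap without a peak.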
